A study of Mus musculus with 9 samples.

Results

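The serotonin receptors and the serotonin transporter were described in RNA of tissue labelled as mouse hippocampus. The members are the 10 gene symbols Htr1a, Htr1b, Htr1f, Htr2a, Htr2c, Htr3a, Htr4, Htr5a, Htr7 and Slc6a4, 9 receptors and 1 transporter. All 10 were found among the 54513 genes of the deposited table, and 9 had enough counts to be tested. Slc6a4 did not, and is given by its counts. The study had 9 libraries of polyadenylated RNA, 3 mice in each of 3 groups, and all mice were kept on high-fat food for 12 weeks. For the HFD group that was the whole treatment. In the Trp group the food held 0.5% tryptophan by weight, the amino acid from which serotonin is made. Mice of the IPA group were gavaged each day with 100 mg/kg of indole-3-propionic acid, a product that gut bacteria make from tryptophan. The labels mention no vehicle gavage for the other groups, no group on ordinary chow, and neither strain, sex nor age. In the authors' table the columns of HFD, IPA and Trp are coded WTB, HEB and HOB; the labels tie each code to its sample without saying what it stands for.

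Serotonin is made from tryptophan in neurons of the brainstem raphe, whose axons reach most of the forebrain, the hippocampus included. Its receptors are G protein-coupled receptors, with the exception of the 5-HT3 receptor, an ion channel. The 5-HT1 receptors couple to inhibitory G proteins, the 5-HT2 receptors to Gq and phospholipase C, and the 5-HT4, 5-HT6 and 5-HT7 receptors to stimulatory Gs. The transporter takes serotonin back up into the axon, and its messenger RNA lies mainly in raphe cell bodies. Receptor transcripts also mark brain regions: those of 5-HT1A are abundant in the hippocampus, of 5-HT1B in striatal projection neurons and hippocampal pyramidal cells, and of 5-HT2C in the choroid plexus, which lies next to the hippocampus.

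Libraries held 40621084 to 50938746 counts, so that 0 counts left room for a level of up to 0.0584 to 0.075 CPM (counts scaled to a common library size), a limit for counting error only. Markers of other brain regions varied between libraries. The mean log2 CPM of 19 striatal markers ran from 4.93 in HFD 3 to 6.86 in IPA 3, and that of 20 choroid plexus markers from -0.44 in Trp 3 to 3.55 in Trp 1. Hippocampal markers were detected throughout, with mean log2 CPM of 2.87 to 4.06 for 16 dentate granule cell genes and 4.88 to 5.57 for 17 genes of the CA fields. No gene of these 4 lists was at 0 in all libraries. HFD 3 stood apart: its Slc6a3, the dopamine transporter of midbrain neurons, had 468 counts against 7 to 30 in the other libraries. Not every log2 fold change against HFD is printed. Where a printed one moved by over 1.5 times or changed sign without HFD 3, it is given both ways.

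Htr1b and Htr2a, the pair of members with the highest correlation over the 9 libraries, are shown here by the 250 bases before their transcription start (RefSeq, GRCm38.p6, 5′ to 3′ on the gene's strand). The Htr1b sequence lies at chr9:81633833-81634082 on the minus strand and that of Htr2a at chr14:74640624-74640873 on the plus strand. The RefSeq table held 8 of the members looked up and lacked Htr3a, and Htr4 was not looked up. Capitals mark a match to the GC box GGGCGG on either strand.
Htr1b: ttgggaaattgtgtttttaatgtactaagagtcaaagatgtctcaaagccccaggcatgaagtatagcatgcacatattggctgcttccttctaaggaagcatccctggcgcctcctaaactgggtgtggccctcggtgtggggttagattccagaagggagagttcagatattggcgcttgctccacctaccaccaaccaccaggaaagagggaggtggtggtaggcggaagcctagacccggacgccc
Htr2a: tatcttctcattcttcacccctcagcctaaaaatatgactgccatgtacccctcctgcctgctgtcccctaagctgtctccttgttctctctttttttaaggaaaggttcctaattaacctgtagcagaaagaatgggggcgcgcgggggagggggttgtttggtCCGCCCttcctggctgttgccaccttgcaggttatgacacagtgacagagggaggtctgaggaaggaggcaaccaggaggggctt
The GC box occurred in 1 copy before Htr2a and in 0 before Htr1b, and 32.74% of 32851 promoters of the same length held it. The TATA motif TATAAA (12.37% of promoters) and the cAMP response element TGACGTCA (1.55%), searched on both strands, occurred in neither. GC content was 52.4% for Htr1b and 52.8% for Htr2a, beside a median of 52.4% over all promoters.

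Levels were compared between genes per length, as FPKM (fragments per length of gene and per depth of library, as deposited). Htr2c was the most abundant member in every library, with a mean of 9.84 FPKM (SD 1.40 over 9 libraries). Its range of 7.58 to 11.5 FPKM did not overlap that of Htr2a, the next gene. Htr2a stood at 6.32 ± 1.24 FPKM and Htr1b at 5.53 ± 1.56 FPKM, and Htr2a exceeded Htr1b in 8 of 9 libraries with overlapping ranges. Htr1a (3.16 ± 0.43 FPKM) and Htr7 (3.06 ± 0.516 FPKM) did not differ beyond their spread, since Htr1a was the higher in 5 of 9 libraries. Htr5a followed at 2.32 ± 0.372 FPKM and Htr3a at 1.59 ± 0.347 FPKM. Htr3a was above Htr1f in 9 of 9 libraries without overlap. Htr1f (0.611 ± 0.211 FPKM) and Htr4 (0.513 ± 0.141 FPKM) overlapped. Slc6a4 was last, with 0 to 0.361 FPKM.

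**Figure D1:**
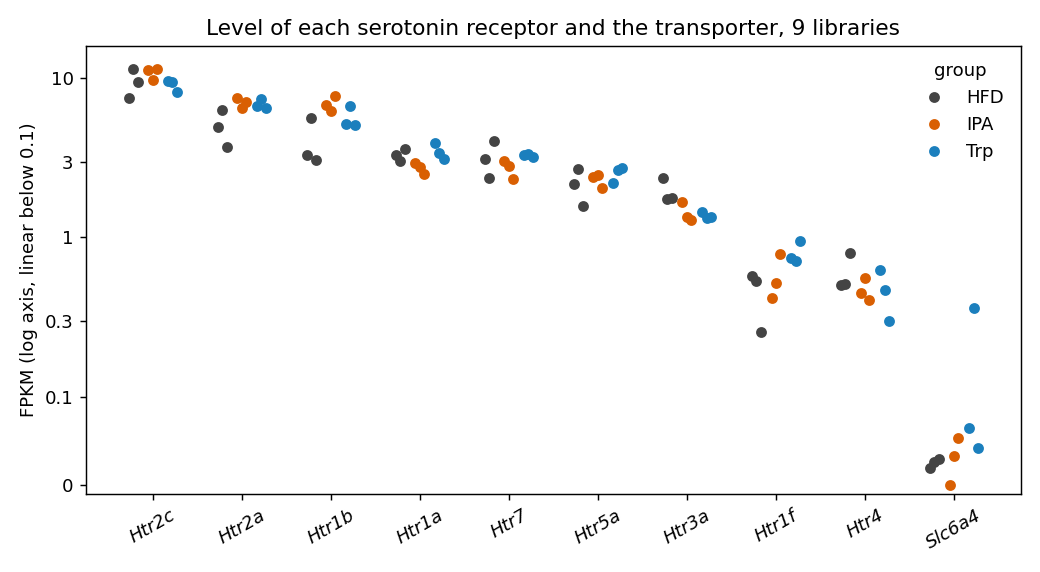
FPKM of each member (log axis, linear below 0.1) in the 9 libraries, with 1 point per library and colours for the HFD, IPA and Trp groups. Htr2c lies highest, between 7.58 and 11.5 FPKM, and Slc6a4 lowest, with 8 of 9 libraries below 0.1 FPKM and Trp 2 at 0.361 FPKM.

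Set beside the 18690 tested genes, Htr2c lay above 68.9% and Htr2a above 59.8% of them in mean FPKM. Htr1a lay above 46.5%, Htr1f above 23.1% and Htr4 above 20.8%. The summed FPKM of the 10 members ran from 27.8 in HFD 1 to 36.6 in IPA 1. Htr2c, Htr2a and Htr1b together made up 56.8% of that sum in HFD 1, 68.4% in HFD 2 and 57.5% in HFD 3. Their share was 68.2% to 73.6% in the IPA libraries and 63.0% to 66.0% in the Trp libraries. HFD 2 thus lay within the range of the IPA libraries, and HFD 1 and HFD 3 below all other libraries.

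Tested against the HFD group, no member had an adjusted p under 0.05 (edgeR's quasi-likelihood test, Benjamini-Hochberg adjustment). That was 0 of 9 members for Trp against HFD, where 0.342% of all genes passed, and 0 of 9 for IPA against HFD, where 0.00535% passed. For Trp against IPA it was 0 of 9, with 0% of all genes. At an unadjusted p under 0.05 there were 3 members for Trp against HFD (11.3% of all genes), 3 when IPA was set against HFD (10.4%) and 1 when Trp was set against IPA (4.49%). By DESeq2 the counts of members that passed were 0, 1 and 0 in the same order, the 1 being Htr1b, and the shares of all genes with a DESeq2 adjusted p were 1.87%, 1.04% and 0.0819%. The median log2 fold change of the 9 members was 0.00 for Trp against HFD, 0.12 with IPA set against HFD and -0.12 with Trp set against IPA, and over all genes it was -0.00222, -0.00556 and 0.00773. Groups with CPM ranges that did not overlap were found for 2 of 9 members in Trp against HFD (15.5% of all genes), 1 higher (8.06%) and 1 lower (7.43%). For IPA against HFD they were found for 2 of 9 (15.2%), both higher (7.19%; 0 were lower, 8.01%). For Trp against IPA it was 1 of 9 (11.2%), which was lower (5.55%; 0 were higher, 5.61%). Both comparisons with HFD share the 3 HFD libraries. The test measures the spread between 3 mice per group, and fewer cells of a type cannot be told apart from less RNA per cell.

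**Figure D2:**
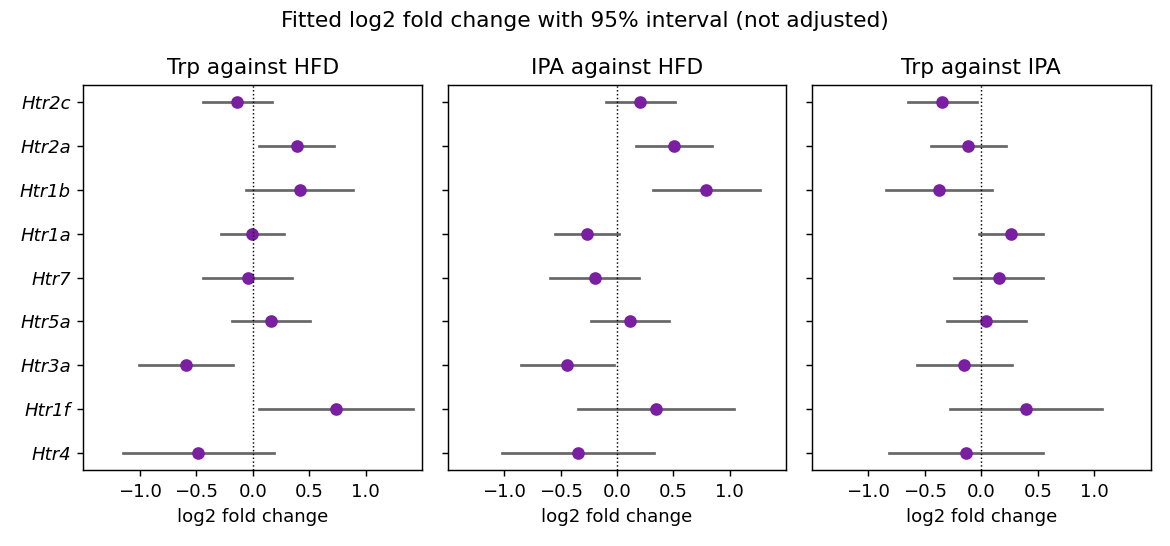
Log2 fold changes (points) of the 9 tested receptors in the 3 comparisons with unadjusted 95% intervals (lines), from edgeR. For Trp against HFD the intervals of Htr1f, Htr2a and Htr3a lie off 0, for IPA against HFD those of Htr1b, Htr2a and Htr3a, and for Trp against IPA that of Htr2c.

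Among the members coupled to inhibitory G proteins, Htr1b (5-HT1B, which restrains transmitter release from axon terminals) gave the largest absolute log2 fold change of IPA against HFD. In the order of mice 1 to 3, the HFD libraries held 17.5, 29.6 and 16.7 CPM, the IPA libraries 36.9, 32.2 and 41.4 CPM and the Trp libraries 26.6, 33.4 and 25.2 CPM, an order kept for the genes that follow. Every IPA library was above every HFD library, with HFD 2 near the lowest IPA library, and the Trp libraries overlapped both groups. The fold of IPA over HFD was 1.73 (log2 fold change 0.79, SE 0.21, 95% interval 0.32 to 1.27, n = 3 per group, adjusted p = 0.313 in edgeR). Of Trp against HFD the log2 fold change was 0.42 (interval -0.06 to 0.89, adjusted p = 0.51), 0.73 without HFD 2 (adjusted p = 0.0889) and 0.27 without HFD 3 (adjusted p = 0.641), and of Trp against IPA it was -0.37 (interval -0.85 to 0.10, adjusted p = 0.987). In the authors' deposited table the log2 fold change of IPA against HFD was 0.795 with q = 0.0133, and the gene was not among their calls. DESeq2 gave an adjusted p of 0.0149. Without HFD 2 the log2 fold change was 1.11 (edgeR adjusted p = 0.0231), and without HFD 3 it was 0.65 (adjusted p = 0.245). Over the edgeR, DESeq2 and limma alternatives, adjusted p ran from 0.0149 to 0.764. Exons of Htr1b overlap those of D430036J16Rik on the other strand in the GENCODE annotation. That gene had 58 to 187 counts per library against 702 to 1751 for Htr1b, and without strand in the counting the reads of both cannot be told apart.

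Markers of the striatum, a forebrain region outside the hippocampus, differed in the same direction as Htr1b. All 19 striatal markers had higher group values with IPA than with HFD (median log2 fold change 0.72), beside -0.00556 for all genes. Of the 19, 0 passed (0.00535% of all genes), and 4 had IPA ranges wholly above those of HFD (7.19% of all genes). With Trp all 19 were also higher than with HFD (median 0.27). The direction was not particular to the striatum, since all 20 choroid plexus markers were higher with IPA too (median 0.97). The list's mean was 5.78 ± 0.81 log2 CPM for HFD, 6.63 ± 0.20 for IPA and 6.25 ± 0.25 for Trp (SD, n = 3). Summed, the list ran from 1203 to 3761 CPM among HFD libraries, 3662 to 4734 among IPA libraries and 2571 to 3661 among Trp libraries. None of the 19 was at 0 in all libraries. The D1 dopamine receptor Drd1 gave 44.4, 88.6 and 20.5 CPM with HFD and 81.9, 70.9 and 102 CPM with IPA. HFD 2 was the HFD library with the highest values of both Htr1b and the striatal markers. With the striatal mean as a covariate, the log2 fold change of Htr1b for IPA against HFD was 0.39 (adjusted p = 0.339) and for Trp against HFD 0.22 (adjusted p = 0.526). That covariate was chosen after seeing the data, and its mean differed between the groups. Striatal tissue and treatment therefore cannot be told apart in the Htr1b values.

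**Figure D3:**
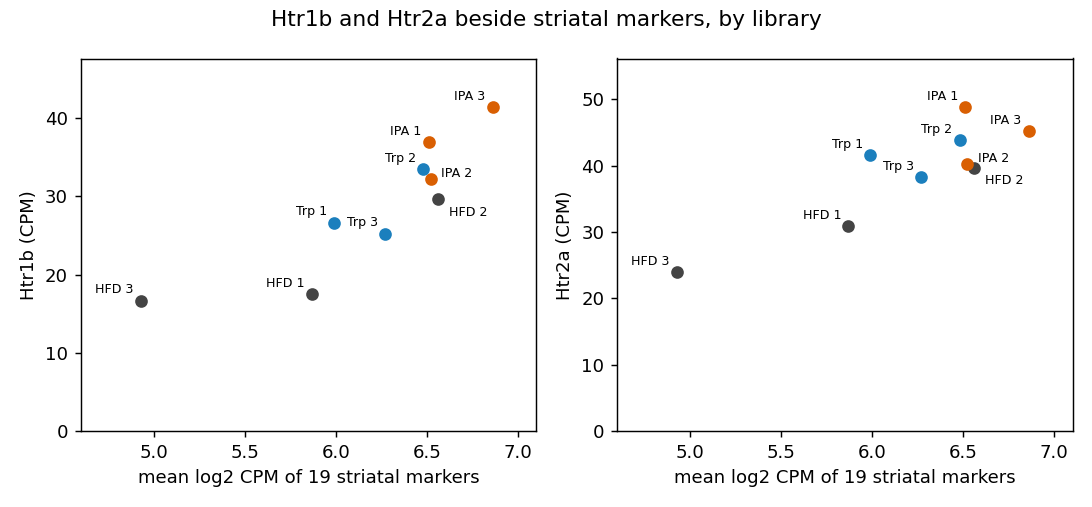
CPM of Htr1b (left) and Htr2a (right) against the mean log2 CPM of 19 striatal markers, with 1 labelled point per library coloured by group. HFD 3 has the lowest striatal mean (4.93) with the lowest values of both receptors, 16.7 and 23.9 CPM, and IPA 3 the highest striatal mean (6.86).

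Htr1a encodes 5-HT1A, the autoreceptor of raphe neurons and a postsynaptic receptor of hippocampal principal cells. The HFD libraries held 16.6, 15.0 and 18.4 CPM, those of IPA 15.1, 13.6 and 12.8 CPM and those of Trp 19.4, 15.9 and 14.5 CPM. The IPA libraries lay low, and IPA 1 overlapped HFD 2. Against HFD, IPA gave a log2 fold change of -0.26 (95% interval -0.55 to 0.02, adjusted p = 0.501 in edgeR). For Trp against HFD it was -0.00 (interval -0.28 to 0.28, adjusted p = 0.996), an interval that holds no change beyond 0.28 in either direction, and without HFD 3 it was 0.07. Its exons overlapped those of no other gene.

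Htr1f, the gene of 5-HT1F, was near the bottom of the order, with 32 to 128 counts per library. Values were 1.67, 1.53 and 0.76 CPM with the high-fat diet alone, 1.25, 1.48 and 2.32 CPM with IPA and 2.12, 1.94 and 2.58 CPM with tryptophan. Every Trp library was above every HFD library, and the IPA libraries overlapped both. The fold of Trp over HFD was 1.67 (log2 fold change 0.74, SE 0.31, interval 0.06 to 1.42, adjusted p = 0.395 in edgeR). Without HFD 3, the lowest library, the log2 fold change was 0.47 (adjusted p = 0.484).

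Of the receptors coupled to Gq, Htr2a (5-HT2A, the excitatory receptor of cortical pyramidal cells and the main target of classical hallucinogens) followed Htr1b most closely. HFD mice gave 30.9, 39.6 and 23.9 CPM, IPA mice 48.8, 40.2 and 45.2 CPM and Trp mice 41.6, 43.8 and 38.3 CPM. The IPA libraries all lay above the HFD libraries, IPA 2 by less than 1 CPM over HFD 2, and the Trp libraries overlapped HFD 2. Log2 fold changes were 0.51 for IPA against HFD (SE 0.15, interval 0.17 to 0.84, adjusted p = 0.328) and 0.39 for Trp against HFD (SE 0.15, interval 0.05 to 0.72, adjusted p = 0.365), both by edgeR. Without HFD 3 these were 0.34 (adjusted p = 0.23) and 0.23 (adjusted p = 0.413), and without HFD 2 they were 0.71 (adjusted p = 0.0674) and 0.59 (adjusted p = 0.134). With the striatal mean as a covariate, under the same limit as for Htr1b, they were 0.20 (adjusted p = 0.537) and 0.24 (adjusted p = 0.352). The mean log2 CPM of 18 cortical layer markers ran from 4.81 in HFD 3 to 5.14 in HFD 2, and its part in the Htr2a values was not tested.

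Htr2c, the most abundant member, encodes 5-HT2C, a receptor whose transcript is edited from adenosine to inosine. The HFD libraries held 40.1, 60.4 and 51.4 CPM, those of IPA 62.1, 51.4 and 62.0 CPM and those of Trp 50.1, 47.2 and 40.9 CPM. The HFD libraries spanned nearly the whole range of the other groups, while every Trp library was below every IPA library. Between Trp and IPA the log2 fold change was -0.34 (SE 0.14, interval -0.65 to -0.04, unadjusted p = 0.0304, adjusted p = 0.987 in edgeR). Against HFD it was -0.14 for Trp (interval -0.44 to 0.17, adjusted p = 0.778) and 0.21 for IPA (interval -0.10 to 0.51, adjusted p = 0.628). Without HFD 2 these were 0.01 (adjusted p = 0.989) and 0.35 (adjusted p = 0.356), and without HFD 1 they were -0.28 (adjusted p = 0.535) and 0.07 (adjusted p = 0.948). The choroid plexus mean in log2 CPM was 1.01, 0.72 and 2.73 for HFD, 1.66, 3.26 and 2.66 for IPA and 3.55, 2.02 and -0.44 for Trp. Htr2c was low in HFD 1 and Trp 3, where that mean was also low, and high in HFD 2, where it was low too, and the part of choroid plexus in the Htr2c values was not tested. Ttr, the thyroxine carrier and most abundant gene of that list, spanned 25.7 to 1290 CPM, and Htr2c 40.1 to 62.1 CPM, a 1.55-fold range.

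**Figure D4:**
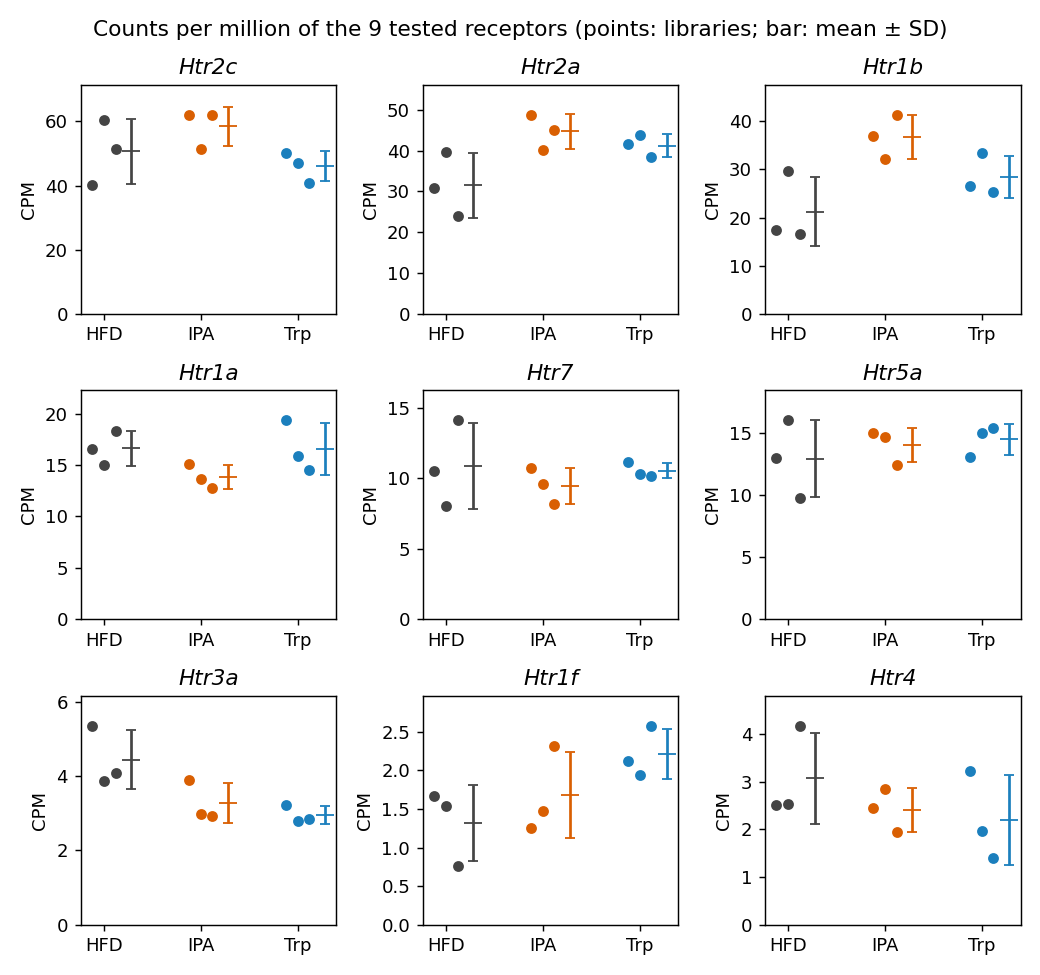
CPM of the 9 tested receptors in the HFD, IPA and Trp groups, each panel from 0 with its own axis; points are the 3 libraries of a group and bars the mean ± SD. The IPA libraries lie above the HFD libraries for Htr1b and Htr2a, the Trp libraries above them for Htr1f and below them for Htr3a.

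The ion channel subunit Htr3a (5-HT3A, found in a class of cortical and hippocampal interneurons) gave the smallest unadjusted p of a member for Trp against HFD. Values were 5.35, 3.87 and 4.08 CPM with the high-fat diet alone, 3.902, 2.982 and 2.93 CPM with IPA and 3.21, 2.78 and 2.84 CPM with tryptophan. All Trp libraries were below all HFD libraries, and IPA 1 overlapped the lowest HFD library. The log2 fold change was -0.59 for Trp against HFD (SE 0.19, interval -1.01 to -0.18, unadjusted p = 0.00905, adjusted p = 0.268 in edgeR) and -0.44 for IPA against HFD (interval -0.85 to -0.02, adjusted p = 0.469). Without HFD 1, the highest library, they were -0.43 (adjusted p = 0.553) and -0.28 (adjusted p = 0.823). Of 16 markers of that interneuron class, 12 were lower with tryptophan than with HFD (median log2 fold change -0.19) and 0 passed (0.342% of all genes). As a list they averaged 4.46 ± 0.16 log2 CPM for HFD, 4.36 ± 0.09 for IPA and 4.28 ± 0.09 for Trp (SD, n = 3). Their part in the Htr3a values was not tested. Htr3b, the partner subunit, gave 0 to 8 counts per library and was not tested.

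Of the receptors coupled to Gs, Htr7 (5-HT7, of thalamus and hippocampus) was at 10.5, 8.01 and 14.1 CPM among HFD mice, 10.7, 9.56 and 8.15 CPM among IPA mice and 11.1, 10.3 and 10.2 CPM among Trp mice. The lowest and the highest value were both in the HFD group. HFD 3, with the highest Htr7, also had the highest mean of 16 thalamus and habenula markers, 4.68 log2 CPM against 2.95 to 4.11 in the other libraries. The log2 fold change was -0.05 for Trp (interval -0.44 to 0.35, adjusted p = 0.961) and -0.20 for IPA (interval -0.59 to 0.20, adjusted p = 0.739) against HFD in edgeR. Without HFD 3 they were 0.19 (adjusted p = 0.642) and 0.035 (adjusted p = 0.943), and both changed sign. The sign for Trp was also positive in the limma fits on FPKM, and both were positive with the striatal mean as a covariate, 0.22 and 0.26.

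Htr4 (5-HT4, which promotes hippocampal excitability) was at 2.504, 2.541 and 4.18 CPM among HFD mice, 2.45, 2.86 and 1.94 CPM among IPA mice and 3.23, 1.96 and 1.39 CPM among Trp mice. All 3 groups overlapped, and HFD 3 and Trp 1 were the 2 highest libraries. The same 2 libraries had the highest dentate granule cell means, 4.06 and 3.98 log2 CPM. They also had the highest Prox1, the granule cell transcription factor, at 42.3 and 27.9 CPM against 10.3 to 17.1 CPM in the others. Calb1, the most abundant gene of that list, was not high there, at 173 and 175 CPM against 172 to 243 CPM in the others. Log2 fold changes were -0.48 for Trp (interval -1.15 to 0.19, adjusted p = 0.615) and -0.35 for IPA (interval -1.02 to 0.33, adjusted p = 0.732) against HFD in edgeR. Without HFD 3 they were -0.20 (adjusted p = 0.833) and -0.06 (adjusted p = 0.948). For Trp the value was -0.88 without Trp 1 (adjusted p = 0.403) and -0.24 without Trp 3 (adjusted p = 0.817), and for IPA it was -0.21 without IPA 3 (adjusted p = 0.964). The part of dentate tissue in these values was not tested.

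Htr5a (5-HT5A, a receptor coupled to inhibitory G proteins) was at 12.99, 15.99 and 9.76 CPM among HFD mice, 15.0, 14.6 and 12.4 CPM among IPA mice and 13.1, 14.9 and 15.4 CPM among Trp mice. The IPA and Trp values lay within the range of the HFD libraries. The log2 fold change was 0.16 for Trp (interval -0.19 to 0.51, adjusted p = 0.77) and 0.12 for IPA (interval -0.23 to 0.46, adjusted p = 0.838) against HFD in edgeR, and without HFD 3 it was -0.005 and -0.05.

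Slc6a4, the serotonin transporter and the target of the selective reuptake inhibitors, gave 3, 5 and 5 counts among HFD mice, 0, 5 and 8 among IPA mice and 11, 44 and 7 among Trp mice. Trp 2 alone held 44 of the 62 counts of its group. In CPM the Trp libraries stood at 0.214, 1.05 and 0.141, above the highest HFD library at 0.119, and the exact two-sided permutation test gave p = 0.1, the smallest that 3 against 3 libraries allow. Trp against IPA gave p = 0.2 and IPA against HFD p = 0.8 in the same exact test. In edgeR without a filter on low counts, the log2 fold change of Trp against HFD was 2.27 (adjusted p = 0.466). The 10 raphe markers did not share 1 pattern. Tph2, the neuronal tryptophan hydroxylase that starts serotonin synthesis, was at 3.40 CPM in Trp 2 against 0.936 to 2.28 CPM in the other 8 libraries. Fev, the transcription factor of serotonin neurons, gave 7 counts in Trp 2, 3 in HFD 3 and 0 elsewhere. Slc18a2, the vesicular monoamine transporter, was highest in HFD 3 at 22.6 CPM and stood at 10.15 CPM in Trp 2, against 6.63 to 10.09 CPM in the other 7 libraries. Pou3f2, the most abundant of the 10, was at 18.4 CPM in Trp 2, within the 16.1 to 23.5 CPM of the other libraries. Gch1 (1.32 CPM in Trp 2), Gata2 (3.78 CPM) and Lmx1b (0.263 CPM) also lay within the range of the others. The mean log2 CPM of 10 raphe markers was 0.73 in Trp 2, 1.02 in HFD 3 and -0.39 to 0.22 in the others. Their part in the Slc6a4 values was not tested.

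The members did not vary as 1 group. Over the 9 libraries, Pearson's r of log2 CPM between Htr1b and Htr2a was 0.92, the highest of the 36 pairs of tested members, followed by 0.75 for Htr1a and Htr7 and 0.72 for Htr2a and Htr5a. The lowest was -0.78 for Htr1f and Htr4. These values describe 9 libraries that differ in group and in markers of other brain regions, and carry no test. Spread within groups also differed: the SD of log2 CPM was 0.165 for Htr1a, 0.205 for Htr3a and 0.212 for Htr2c, and 0.448 for Htr1f and 0.45 for Htr4, with a median of 0.189 over all tested genes. Htr1f and Htr4, the least abundant of the tested members, thus had the widest spread.

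**Figure D5:**
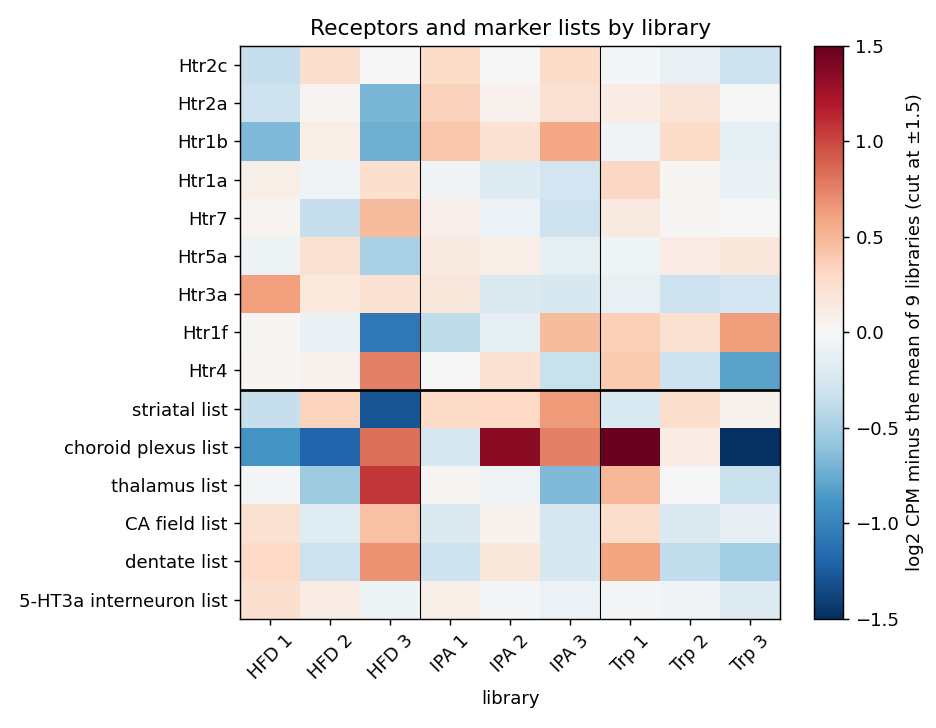
Log2 CPM of the 9 tested receptors and mean log2 CPM of 6 marker lists in each library, as the difference from the mean of 9 libraries (colour scale cut at ±1.5). HFD 3 is low in Htr1b, Htr2a, Htr1f and the striatal list (4.93) and high in Htr7, Htr4 and the thalamus list (4.68).

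For the 7 members that themselves averaged at least 1 FPKM, the most similar genes were taken from 11933 tested genes with a mean of at least 1 FPKM, by Pearson's r of log2 CPM over the 9 libraries. For Htr1b these were Ric8b (0.988), a chaperone of Gs-type alpha subunits, Cdo1 (0.981), the cysteine dioxygenase, and Cyld (0.98), a deubiquitinase. For Htr2a they were Gpx6 (0.985), a glutathione peroxidase, Arpp19 (0.959), a regulator of protein phosphatase, and Mme (0.956), the peptidase neprilysin. Gpx6 ran from 0.142 CPM in HFD 3 to 4.98 CPM in IPA 1, the libraries in which Htr2a was also lowest and highest. For Htr2c they were Cnot7 (0.96), a deadenylase, Wac (0.96) and Nfat5 (0.959), the transcription factor of osmotic stress. For Htr1a they were Fgf10 (0.931), Tnfaip8l3 (0.929) and Gstz1 (0.858). For Htr7 they were Manba (0.975), Armh4 (0.959) and Patj (0.959), of which Patj is on the thalamus list and reached 46.0 CPM in HFD 3 against 11.4 to 27.2 CPM elsewhere. For Htr5a they were Zfp746 (0.969), Pml (0.932) and Jsrp1 (0.931). For Htr3a they were Eri2 (0.953), Deaf1 (0.952) and Eif2b3 (0.948). Deaf1, known as a transcription factor at the Htr1a promoter, was also on the list of trafficking and transcription genes. These likenesses describe 9 libraries that differ in group and in markers of other brain regions.

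Of the 5 other serotonin receptors on the list, 3 were tested and 0 passed in any comparison. Htr6 (5-HT6, a Gs-coupled receptor of striatum and hippocampus) gave 89 to 220 counts, and its log2 fold change was 0.13 for Trp against HFD (interval -0.41 to 0.68, adjusted p = 0.898 in edgeR) and -0.07 without HFD 3. Htr5b gave 29 to 100 counts and log2 fold changes of -0.79 for Trp (interval -1.73 to 0.15, adjusted p = 0.532) and -0.37 for IPA against HFD (adjusted p = 0.791, and -0.12 without HFD 3), and -0.42 for Trp against IPA (adjusted p = 0.987). Htr1d gave 4 counts in HFD 1 and 107 to 305 in the other libraries. Its FPKM in HFD 1, 0.167, implies a gene length 6.3 times shorter than in the library where it was longest, so its count and FPKM do not match there, and its log2 fold change of 0.91 for IPA against HFD (adjusted p = 0.786) rests on that count. The members' implied lengths varied 1.05- to 1.29-fold. Htr2b, with 0 to 11 counts, was not tested.

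Enzymes and carriers that make, store and clear serotonin gave no call either, with 0 of 17 tested genes passing in each comparison. For Trp against HFD 6 were higher and 11 lower (median -0.14), and for IPA against HFD also 6 and 11 (median -0.17). Maob, the glial monoamine oxidase, had a log2 fold change of 0.36 for Trp against HFD (adjusted p = 0.429), and Aldh2, an aldehyde dehydrogenase, 0.24 (adjusted p = 0.335). Gch1, which starts synthesis of the hydroxylase cofactor tetrahydrobiopterin, had -0.88 for IPA against HFD (interval -1.57 to -0.19, adjusted p = 0.392), and Spr, the last enzyme of that route, -0.23 (adjusted p = 0.463). Without HFD 3 these were -0.44 for Gch1 (adjusted p = 0.505) and -0.14 for Spr (adjusted p = 0.539). Tph2 had 0.93 for Trp against IPA (interval 0.23 to 1.63, adjusted p = 0.987), and Tph1, with 9 to 24 counts, 0.91 (adjusted p = 0.987). The Tph2 values of the groups overlapped, with Trp 3 at 1.23 CPM below IPA 3 at 1.35 CPM, and Trp 2 was highest at 3.40 CPM.

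Of 9 transcription factors of serotonin neurons, 6 were tested and 0 passed, beside the same shares of all genes. Nkx2-2, which is also a factor of oligodendrocyte precursors, averaged 3.97 ± 0.315 CPM for HFD, 1.94 ± 0.14 for IPA and 2.52 ± 0.314 for Trp (SD, n = 3), with groups that did not overlap in any of the 3 comparisons. Its log2 fold change was -1.03 for IPA against HFD (SE 0.18, adjusted p = 0.14 in edgeR) and -0.66 for Trp against HFD (adjusted p = 0.199). Without HFD 3 these were -0.96 and -0.59. Of 14 oligodendrocyte markers 12 were lower in IPA and 11 in Trp than in HFD (medians -0.20 and -0.25). Only HFD 3 stood high in the mean log2 CPM of that list, with 7.4, 7.47 and 8.15 in the HFD libraries. The list averaged 7.56 ± 0.07 for IPA and 7.47 ± 0.12 for Trp (SD, n = 3). HFD 1 and HFD 2 lay below every IPA library and within the range of the Trp libraries. The part of these markers in the Nkx2-2 values was not tested. Lmx1b had 2.12 for Trp against IPA (interval 0.17 to 4.07, adjusted p = 0.987). That value rests on 6, 0 and 3 counts in the IPA libraries and 12, 11 and 24 in the Trp libraries.

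Downstream of the receptors, 0 of 31 G protein and effector genes passed in any comparison of the reported fit, beside the same shares of all genes. Plcb4, a phospholipase C, passed for Trp against HFD when HFD 3 was left out, where 323 of 19120 genes passed. Its log2 fold change was 0.23 with HFD 3 (adjusted p = 0.695) and 0.53 without it (adjusted p = 0.0123). With IPA set against HFD it was 0.16 (adjusted p = 0.793) and 0.45 without HFD 3 (adjusted p = 0.0648), all by edgeR. For Trp against HFD 16 were higher and 15 lower (median 0.00), and for IPA against HFD 14 and 17 (median -0.05). Adcy8, a calcium-stimulated adenylyl cyclase, averaged 23.3 ± 4.25 CPM for HFD, 15.3 ± 2.09 for IPA and 15.8 ± 2.09 for Trp, with log2 fold changes of -0.60 for IPA (adjusted p = 0.251) and -0.55 for Trp (adjusted p = 0.204). Adcy9 had 0.65 for IPA against HFD (adjusted p = 0.328), and Gnai1, an inhibitory G protein alpha subunit, -0.29 for Trp against HFD (adjusted p = 0.242). Between Trp and IPA the smallest p-values were those of Adcy6 (0.33, adjusted p = 0.987) and Plcb1 (-0.30, adjusted p = 0.987).

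Of 23 genes of receptor trafficking, desensitisation, editing and transcription, 0 passed, beside the same shares of all genes. Of the 23, 15 were lower in Trp and 15 in IPA than in HFD (medians -0.07 and -0.06). Cav1, the caveolin of endothelial membranes, averaged 20.6 ± 4.82 CPM for HFD, 14.4 ± 1.55 for IPA and 13.2 ± 1.02 for Trp, with log2 fold changes of -0.64 for Trp (SE 0.16, adjusted p = 0.135) and -0.52 for IPA (adjusted p = 0.328). Without HFD 3 the Cav1 values were -0.45 (adjusted p = 0.114) and -0.33 (adjusted p = 0.289). Of 12 endothelial markers 9 were lower in Trp and 11 in IPA than in HFD (medians -0.32 and -0.35). That list summed to 321.5 to 385.9 CPM among HFD libraries, 275.5 to 292.3 among IPA libraries and 290.5 to 347.6 among Trp libraries, and its part in the Cav1 values was not tested. Deaf1 had -0.30 for Trp (adjusted p = 0.259) and -0.28 for IPA (adjusted p = 0.369). Arrb2, a beta-arrestin, and Cc2d1b, a repressor of Htr1a, had 0.25 and 0.24 for Trp against IPA (adjusted p = 0.987 for both).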

How the data were processed

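Polyadenylated RNA of 9 libraries was sequenced by the submitters. The deposited table holds counts for 54513 genes, whole numbers without scaling, and FPKM, which the authors scaled to gene length and library size, per the file headers. It also holds the authors' log2 fold changes, p-values and q-values for IPA and Trp against HFD. Per the submitters' processing notes, StringTie 2.1.3b and build mm10 were used. For the aligner, counter, annotation, strand setting and the authors' test, nothing is stated (not given in the sources used here). The start positions of all members in the table differ from those of the mm10 annotation (GENCODE M21), at equal gene length, so the table's coordinates are not printed. Columns were mapped through the labels' descriptions, and 0 were left over.

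Counts were fitted in R 4.3.3 with edgeR 4.0.16 (filterByExpr with a minimum count of 10, TMM, robust quasi-likelihood, 1 mean per group over all 9 libraries), and 18690 genes were tested. P-values were two-sided and Benjamini-Hochberg adjusted over all of these. CPM use TMM-adjusted totals, and log2 CPM a prior count of 2. Alternatives were DESeq2 1.42.0, limma 3.58.1 on log2 FPKM, other scaling and filters, a replicate block and leaving out libraries. The procedure was tested on simulated data. Members and lists were chosen with earlier results of these data known. All members are named, and from each pathway list the 2 genes with the smallest p per comparison, except 1 that is not reported here. The planned protein stretches were not printed. The replicate numbers do not pair the mice by any label. Scipy 1.17.1 and matplotlib 3.10.9 were used for the exact test and the figures.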

Additional observations from a re-analysis of the deposited data

How the results depend on the processing

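For all 27 member results (9 receptors in 3 comparisons) together, 468 alternative values were computed: 430 kept direction and side of the threshold, 36 changed sign in 12 results, and 2 passed the threshold, both for Htr1b, IPA against HFD (DESeq2 and the fit without HFD 2). Members passing for IPA against HFD numbered 0 in the reported fit, 1 with DESeq2 and 0 to 1 with 1 library left out. All genes passing for Trp against HFD numbered 64. They were 309 with DESeq2, 97 without a filter, 23 with the replicate block, 18 with limma on unfiltered FPKM, 8 with only the 6 libraries compared, and 13 to 323 with 1 library left out. With striatal and choroid plexus covariates, chosen after seeing the data, they were 207 and 116. For IPA against HFD they numbered 1, and 168 with DESeq2, 6 without a filter, 0 with the replicate block, 2 with only the 6 libraries, 0 to 52 with 1 library left out, 10 and 0 with the covariates and 23 without HFD 3 and Trp 2, also chosen after seeing the data. For Trp against IPA they numbered 0, and 15 with DESeq2, 3 without a filter, 2 with limma at pseudocounts of 0.5, 0.1 and 1, 1 with limma unfiltered, 0 to 1 with 1 library left out and 1 without HFD 3 and Trp 2. The causes were not tested.

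Signs changed as follows. Htr1a, Trp against HFD, was 0.009 without a filter, 0.06, 0.067, 0.054 and 0.06 in the 4 limma fits, 0.105 with the striatal covariate, 0.103 without HFD 3 and Trp 2, and -0.13 to 0.085 with 1 library left out. Htr7 in that comparison was 0.069, 0.081, 0.058 and 0.069 in the limma fits, 0.223 with the striatal covariate, 0.206 without HFD 3 and Trp 2, and -0.224 to 0.188 with 1 library left out. Htr5a was -0.029 without HFD 3 and Trp 2 and -0.005 to 0.345 with 1 left out, and Htr2c -0.279 to 0.011. For IPA against HFD, the striatal covariate gave -0.171 for Htr1f, 0.18 for Htr4, -0.171 for Htr5a and 0.258 for Htr7. Without HFD 3 and Trp 2, Htr5a was -0.049 and Htr7 0.035, and with 1 left out they spanned -0.05 to 0.299 and -0.377 to 0.035. For Trp against IPA, the striatal covariate gave 0.036 for Htr2a and -0.035 for Htr7, and the choroid plexus covariate 0.02 for Htr4 and -0.042 for Htr5a. With 1 left out these spanned -0.532 to 0.108 for Htr4 and -0.034 to 0.111 for Htr5a. Same-numbered libraries had correlations of deviations from -0.196 to 0.048, so the numbers do not pair them, and the replicate block changed no call of a member. Slc6a4 had too few counts to pass the filter, so it has no value in the fits that use one.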
